A study of Mus musculus with 2 samples.

Results

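The collagen genes of imiquimod-treated mouse skin were followed in 2 single-cell libraries, one of the dermis and one of the epidermis. The set was every gene whose symbol is Col, a number, the letter a and a number, which gave 44 genes of the 31053 counted. Membership went by symbol and not by a measured value, though earlier results of these data were known when the set was chosen. Both libraries came from wild type C57BL/6 mice treated with imiquimod (IMQ), a Toll-like receptor agonist that induces psoriasiform inflammation, for 5 consecutive days. The labels give the ear as the site and an age of 10 weeks, where the study's methods give a younger age for its IMQ model, and no untreated library was analysed here. By the study's methods, live CD45+ cells of the dermis and all live cells of the epidermis were sorted and loaded, whereas the labels name only the removal of dead cells for both. Each tissue was 1 library, so no difference between conditions or animals could be tested. Ranges in parentheses are exact 95% intervals of the counts, with no part for differences among cells or mice.

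Collagens are trimeric matrix proteins whose chains wind into a triple helix in the endoplasmic reticulum before secretion. In skin, fibroblasts lay down the fibrils of the dermis, chiefly types I, III and V, and basement membranes contain the type IV network and type XVIII. Type VII forms the anchoring fibrils under the epidermis, and type XVII is a transmembrane protein of the hemidesmosome that ties basal keratinocytes to the basement membrane.

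The dermal library held 4747 cells with at least 200 genes and at most 10% mitochondrial UMIs (unique molecular identifiers, each standing for 1 counted transcript), with a median of 7010 UMIs per cell. The epidermal library held 4173 such cells with a median of 25918. Of the barcodes, 45 occurred in both libraries, of which 39 dermal and 35 epidermal ones were kept. Without them, none of the counts of collagen genes given below moved by 1.5 times or more. Cells were clustered without any collagen gene and named from markers of skin cell types, so that the collagen levels did not define the classes. Counts of 3′ transcript ends are not divided by transcript length, and CPM below is the usual depth-scaled level, the UMIs of a gene relative to all UMIs of its class.

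Of the 44 genes, 42 had at least 1 UMI, 39 in the dermis and 37 in the epidermis. Col6a5 and Col22a1 had none in either. Col19a1, Col4a3 and Col4a6 had UMIs in the epidermis alone, and Col9a2, Col10a1, Col6a4, Col6a6 and Col14a1 in the dermis alone. The dermal cells held 40357 collagen UMIs, 0.0999% of all their UMIs, and the epidermal cells 23218, or 0.0221%. The genes lie on 15 chromosomes of GRCm38 (mm10), with 8 pairs of neighbours under 100 kb apart. Col4a1 and Col4a2, the chains of the type IV network found in most basement membranes, start head to head on chromosome 8 and overlap by 22 bases. Col4a5 and Col4a6 start 1309 bases apart on the X chromosome, also head to head. Col3a1 (chr1:45311538-45349706, + strand) and Col5a2 (chr1:45374321-45503282, - strand) run tail to tail.

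Of the collagen genes, 35 had an upstream sequence in RefSeq (GRCm38.p6), in 38 windows of 250 bases. The 4 shown belong to the genes with the most distinct patterns below: Col3a1, the most abundant collagen transcript of the dermis (chr1:45311288-45311537, + strand); Col8a1, held almost wholly by one group of fibroblast-like cells (chr16:57754738-57754987, - strand); Col17a1, of keratinocytes (chr19:47692095-47692292, - strand, without the 52 bases that GENCODE M21 annotates as exon); and Col27a1, of an epidermal T cell cluster (chr4:63215162-63215411, + strand). The Col27a1 stretch lies within the annotated span of the gene but in none of its exons, and the other 3 end next to the annotated start of their gene. All read 5′ to 3′, and capitals mark 3 promoter motifs searched on both strands. The TATA box was written TATAA, the CCAAT box was searched by the 5 letters of its name, and the GC box was written GGGCGG.
Col3a1: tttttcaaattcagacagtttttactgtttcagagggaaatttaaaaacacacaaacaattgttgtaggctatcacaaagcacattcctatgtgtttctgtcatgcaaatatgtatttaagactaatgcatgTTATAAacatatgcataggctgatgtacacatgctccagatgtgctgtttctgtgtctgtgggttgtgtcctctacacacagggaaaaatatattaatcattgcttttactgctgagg
Col8a1: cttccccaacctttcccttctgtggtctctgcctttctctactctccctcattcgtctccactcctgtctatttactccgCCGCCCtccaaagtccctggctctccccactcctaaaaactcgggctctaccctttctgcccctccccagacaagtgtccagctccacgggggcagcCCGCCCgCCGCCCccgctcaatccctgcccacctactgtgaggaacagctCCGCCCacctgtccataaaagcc
Col17a1: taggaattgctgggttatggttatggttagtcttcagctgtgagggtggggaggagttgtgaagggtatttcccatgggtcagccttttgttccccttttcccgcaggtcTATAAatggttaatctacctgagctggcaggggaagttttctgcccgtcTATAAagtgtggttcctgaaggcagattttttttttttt
Col27a1: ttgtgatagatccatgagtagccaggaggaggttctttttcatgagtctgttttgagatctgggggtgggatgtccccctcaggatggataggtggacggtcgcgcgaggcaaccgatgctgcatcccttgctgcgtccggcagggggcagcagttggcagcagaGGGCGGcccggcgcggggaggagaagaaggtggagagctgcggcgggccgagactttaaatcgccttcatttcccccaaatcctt
Col3a1 held the TATA letters on both strands at 1 overlapping place and Col17a1 held them at 2 places, whereas Col8a1 held 4 GC boxes and Col27a1 1. Over the 38 windows, the TATA box occurred in 18.4%, against 22.8% of all 32851 RefSeq windows of this length. The CCAAT box occurred in 34.2% against 33.8%. The GC box occurred in 57.9% against 32.7%.

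Fibroblast-like cells, though few, held the main part of the collagen transcripts of the dermis, but how large a part depended on how the class was drawn. The 420 fibroblast-like cells, 1 cluster in which 12 of 14 fibroblast markers stood out, Pdgfra, Dcn and Lum among them, carried 34327 collagen UMIs, 85.1% (84.7 to 85.4%) of those in the library. When cells were instead gated by marker UMIs, 168 cells were fibroblast-like and held 42.1%. That gate asked for a Pdgfra UMI and no Ptprc UMI. In the cluster of 420 cells, 33.3% had a Ptprc UMI, and Pdgfra was found in 47.9% to 89.4% of cells across the sub-clusters described below. Many cells of the cluster thus failed the gate. Collagens made up 0.703% (0.696 to 0.711%) of the UMIs of the 420 cells, with a mean of 81.7 per cell and up to 986 in a cell. The share was 0.197% (0.183 to 0.211%) in 57 Schwann-like cells and 0.151% (0.142 to 0.161%) in 54 endothelial-like cells. It was 0.0123% (0.0119 to 0.0127%) in the 4216 immune-like cells. A CD45+ sort depletes fibroblasts, so these shares of the library say nothing of the make-up of the tissue.

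At least 1 collagen UMI lay in 97.9% of fibroblast-like cells, against 52.7% of the immune-like ones, at medians of 10120 and 6781.5 UMIs. With each cell thinned to 1000 UMIs, the shares were 94.7% (92.0 to 96.7%) and 11.8% (10.8 to 12.9%), after 23 and 181 shallower cells were left out. The classes differed more at equal depth. Within the fibroblast-like class, 33.3% of cells had a Ptprc UMI (Ptprc encodes CD45), and the summed marker genes of that class stood at 16011 CPM against 489 CPM in the immune-like cells.

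All collagen genes with enough counts were higher in fibroblast-like than in immune-like cells. A gene was compared if it had at least 20 UMIs over both classes and called if it differed at least 4-fold. Of 44 collagen genes 27 could be compared, and all 27 were at least 4-fold higher, where 12.2% of 13061 genes were higher and 4.32% lower. Genes could pass the filter through the fibroblast-like class alone, as Col9a1 did with 46 UMIs there and 3 in immune-like cells. The 27 of 27 thus rests in part on the filter. The median log2 ratio of these 27 genes was 5.51, against 0.08 for all genes. The other 17 included Col17a1, with 0 UMIs in the fibroblast-like cells (a floor of 0.615 CPM for 3 counts) and 15 in the immune-like cells.

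**Figure D1:**
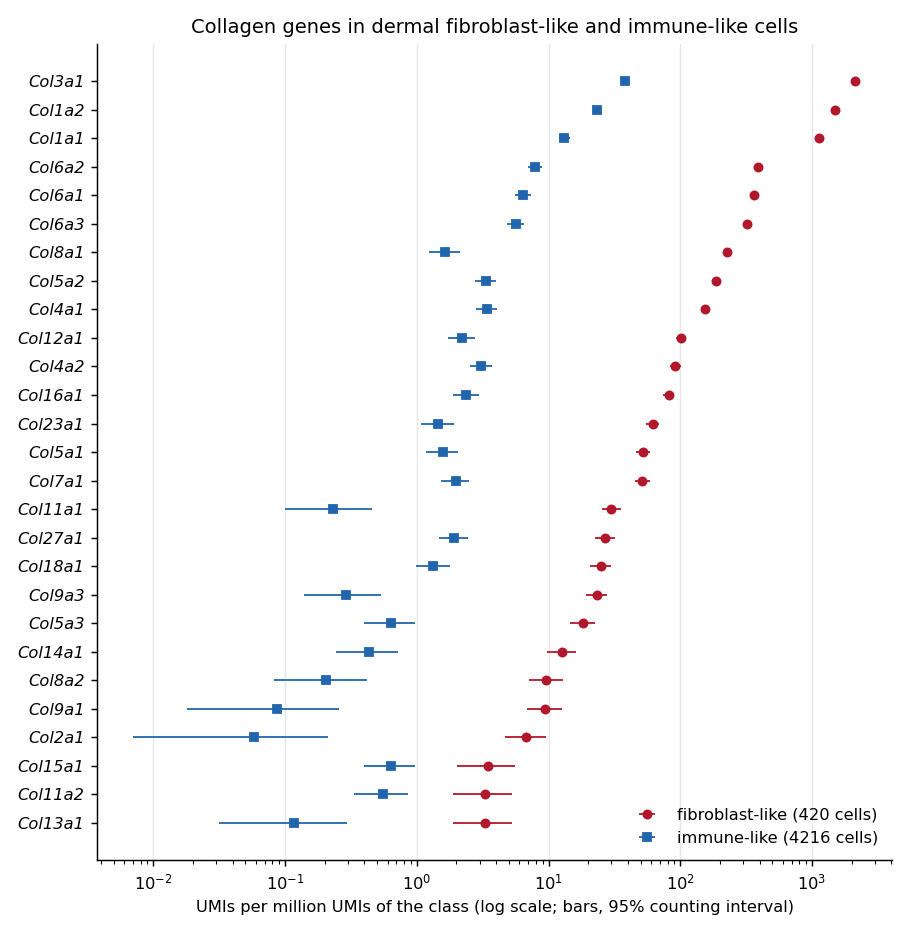
Levels of the 27 collagen genes compared in the dermis, in CPM on a log axis, with 1 point for the fibroblast-like cells and 1 for the immune-like cells of each gene and exact 95% counting intervals. The fibroblast-like point lies to the right of the immune-like point for every gene, from 2129 against 38.0 CPM for Col3a1 downward.

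Type I and type III chains, the body of the dermal fibril, led. Col3a1 stood at 2129 CPM (2088 to 2170) in fibroblast-like and 38.0 CPM in immune-like cells, a ratio of 56.0 (52.8 to 59.3). Col1a2 stood at 1506 against 23.5 CPM, a ratio of 64.2 (59.7 to 69.1), and Col1a1 at 1135 against 13.2 CPM, a ratio of 86.1. Of the collagen UMIs of fibroblast-like cells these genes held 30.3%, 21.4% and 16.1%.

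The chains of type I did not stand in the proportion in which they enter the protein, where Col1a1 supplies the majority of chains. Col1a1 had 0.754 UMIs (0.728 to 0.781) per Col1a2 UMI. In the 6 sub-clusters of the fibroblast-like cells described below the ratio lay between 0.561 and 0.854, so it was under 1 in each of them. Counts of 3′ ends of different transcripts can be captured unequally, and this was not tested.

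The minor fibrillar chains followed at lower levels. Col5a2, a chain of type V that regulates fibril diameter, stood at 188 CPM with a ratio of 56.4 (46.4 to 69.1). Its partner Col5a1 stood at 52.0 CPM (33.2-fold) and Col5a3 at 18.2 CPM (28.5-fold). Col11a1, a fibrillar chain best known from cartilage, stood at 29.9 against 0.232 CPM (129-fold, interval 63.7 to 304). Col27a1, a fibrillar collagen also known from cartilage, had the smallest ratio among the genes with at least 50 UMIs here, 27.0 against 1.92 CPM (14.1-fold, interval 10.4 to 19.3).

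Type VI, the beaded microfibril network around cells, was carried by 3 common chains. Col6a2 stood at 389 CPM, Col6a1 at 365 CPM and Col6a3 at 320 CPM, with ratios of 49.2 (43.3 to 56.1), 56.9 (49.5 to 65.8) and 56.7 (48.8 to 66.2). Col6a4 and Col6a6 had 1 UMI each in these cells. Col6a1 had 0.939 UMIs (0.880 to 1.003) per Col6a2 UMI, an interval that holds 1, and Col6a3 had 0.822 (0.768 to 0.879), an interval that does not.

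Basement membrane and anchoring collagens were also present in the fibroblast-like cells. Col4a1 stood at 155 CPM and Col4a2 at 92.0 CPM, 45.7-fold and 29.9-fold above the immune-like cells. Col7a1, the anchoring fibril gene, stood at 51.6 CPM (26.2-fold, interval 19.9 to 34.7), and Col18a1, of the vascular and epithelial basement membrane, was 18.7-fold higher (13.2 to 26.9). Of the fibroblast-like cells 32.9% had a Col7a1 UMI, and of the immune-like cells 1.38%, or 6.05% and 0.124% after thinning to 1000 UMIs.

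The fibril-associated and transmembrane types completed the group. Col12a1, which decorates type I fibrils, stood at 101 CPM (45.9-fold), Col16a1 at 81.9 CPM (34.4-fold) and Col14a1 at 12.7 CPM (29.2-fold). Col23a1, a transmembrane collagen, stood at 62.1 CPM (42.8-fold). Col8a1, of the short chain network of Descemet's and vascular membranes, stood at 225 CPM and had the highest ratio of the genes with at least 50 UMIs, 138 (106 to 184). Col9a3, of a cartilage fibril-associated collagen, stood at 23.2 CPM (79.7-fold, interval 41.8 to 171). Col8a1 UMIs lay in 11.9% of the fibroblast-like cells.

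Genes that build and anchor the collagen trimer were less uniform. Of all 13061 genes compared, 12.2% were at least 4-fold higher in fibroblast-like than in immune-like cells and 4.32% lower. Of 14 chain modification and folding genes compared, 8 were at least 4-fold higher in fibroblast-like cells and none lower. Serpinh1, the collagen chaperone HSP47, was 57.4-fold higher, whereas P4hb and Ppib, which also serve other secreted proteins, were 2.05-fold and 1.58-fold higher, short of the call. Of 13 secretion, trimming and crosslinking genes 11 were higher, with Pcolce at 45.5-fold, the procollagen protease gene Adamts2 at 59.8-fold and the crosslinking enzyme gene Lox at 83.4-fold.

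Of 10 fibril organisers 9 were higher, with Dcn at 74.6-fold, Sparc at 59.9-fold and Bgn at 56.8-fold. Of 10 cleavage and uptake genes 6 were higher and 1 lower, with Mmp3 at 46.5-fold, Mmp2 at 34.6-fold and Ctsk at 16.1-fold. Collagen receptors went both ways, with 2 higher and 2 lower of 6, where 12.2% of all genes were higher and 4.32% lower. Ddr2 was 42.6-fold and Itga1 7.98-fold higher, while Itgb1, the shared integrin beta chain, was 1.37-fold higher. Of 5 hemidesmosome genes none passed 4-fold. Lox, Dcn and Lum were also among the markers that named the fibroblast-like class. Mrc1 and Mmp9, of the cleavage and uptake genes, were among the markers that named immune-like clusters. The counts of these lists are thus not independent of the classes.

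The fibroblast-like cells fell into 6 sub-clusters, again made without collagen genes, and are described without a call. Their collagen shares ran from 0.470% in sub-cluster 1 through 0.524% in 3, 0.654% in 2, 0.818% in 4 and 0.915% in 6 to 0.977% in 5. Sub-cluster 1 (89 cells) was led by Cd74, H2-Eb1 and H2-Aa, with Ptprc in 69.7% of cells. Sub-cluster 3 (48 cells) was led by Retnlg and Stfa1, with Ptprc in 81.3%. Both thus carried transcripts of immune cells and had the lowest collagen shares, and the cause of this was not tested. Without them the collagen share of the class was 0.864%.

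**Figure D2:**
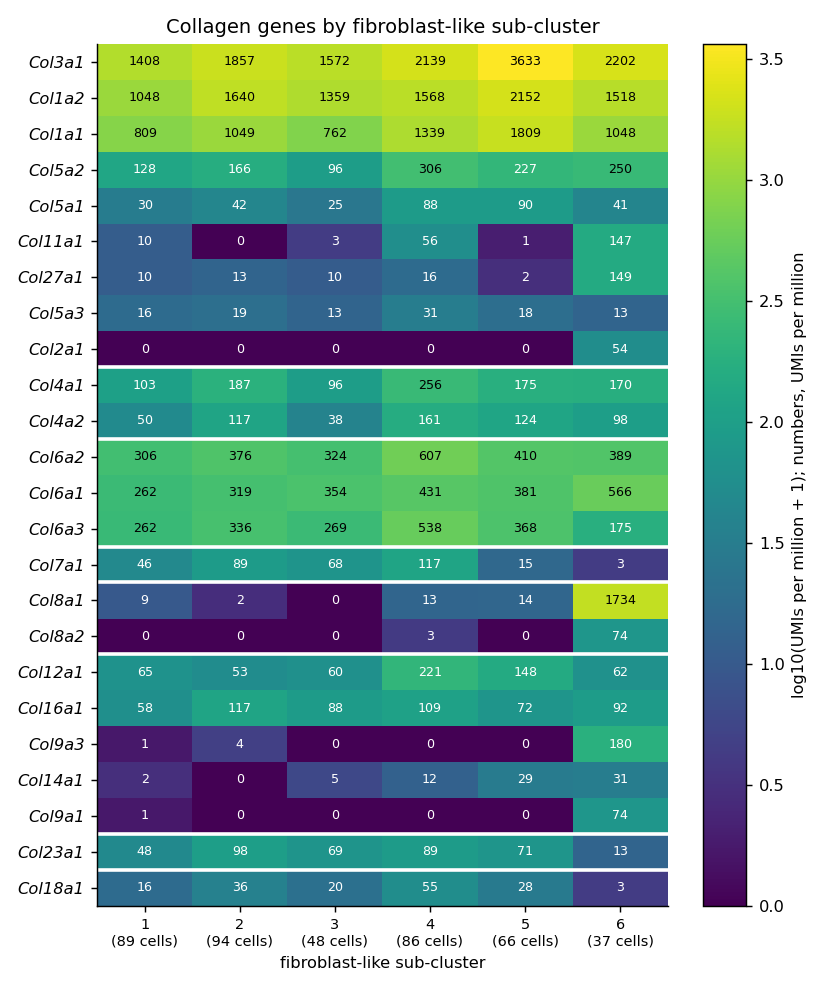
Levels in CPM of the 24 collagen genes with at least 20 UMIs in the fibroblast-like cells (rows) in the 6 sub-clusters (columns), coloured on a log scale. Col8a1, Col8a2, Col9a1, Col9a3 and Col2a1 have nearly all their signal in the column of sub-cluster 6, while Col3a1, Col1a2 and Col1a1 are high in all.

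Sub-cluster 5 (66 cells, led by Ptx3, Il33 and Chl1) was richest in the interstitial chains. Col3a1 reached 3633 CPM there, Col1a2 2152 CPM and Col1a1 1809 CPM, and the next highest values in other sub-clusters were 2202, 1640 and 1339 CPM. Tnc and Pdgfra UMIs were each found in 89.4% of its cells. Col7a1 was at 15.1 CPM in these cells, 0.248 (0.137 to 0.418) of its level in the other fibroblast-like cells.

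Sub-cluster 4 (86 cells, led by Coch and Tpm2, Coch in 82.6% of cells) had another profile. Col7a1 was highest there at 117 CPM, 2.86-fold (2.16 to 3.75) above the other fibroblast-like cells, and Col12a1 at 221 CPM, 2.70-fold (2.21 to 3.28). Col4a1 (256 CPM), Col5a2 (306 CPM), Col6a2 (607 CPM) and Col6a3 (538 CPM) also had their highest levels in sub-cluster 4. Its Col3a1 level, 2139 CPM, was 1.01 of that in the other cells.

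Sub-cluster 6 held nearly all transcripts of several collagens that are known from cartilage and other firm tissues. Its 37 cells were led by Chil1, Cytl1, Myoc, Clu, Angptl7, Comp, Fxyd3, Chad, Ctgf and Ptgis, and no cell type name was given to them. They held 1060 of the 1097 fibroblast-like Col8a1 UMIs (96.6%), found in 32 of the 37 cells, at 1734 CPM. Of Col9a3 they held 110 of 113 UMIs, in 10 cells with up to 41 in a cell. Of Col11a1 they held 90 of 146, in 21 cells, and of Col27a1 91 of 132, in 15 cells.

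Less abundant genes, named after their values were seen, fell in the same cells. All 33 UMIs of Col2a1, the main fibril chain of cartilage, lay in 6 of these cells, 21 of them in a single cell. Of Col9a1, 45 of 46 UMIs lay there, of Col8a2 45 of 47, of Col11a2 15 of 16, and all 13 of Col9a2 and all 4 of Col10a1. Other collagens were low there: Col7a1 had 2 UMIs, Col18a1 2 and Col23a1 8. The type VI chains also differed, with 1.45 Col6a1 UMIs (1.23 to 1.72) per Col6a2 UMI, against 0.711 to 1.09 in the other 5 sub-clusters. Col6a3 had 0.450 UMIs (0.354 to 0.567) per Col6a2 UMI in sub-cluster 6, against 0.832 to 0.899 in the others. Without sub-cluster 6 the collagen share of the fibroblast-like cells was 0.673%.

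Coch, with Tnc, marks the fibroblast subset that the study follows, and the collagen genes were compared between cells with and without a Coch UMI. The 233 Coch+ cells had a median of 10911 UMIs and the 187 Coch- cells 8674, so that depth bears on the split. Of 24 collagen genes compared, 1 was at least 2-fold higher and none lower, where 2.75% of 9824 genes were higher and 2.43% lower. The 1 was Col2a1, with 27 against 6 UMIs (ratio 2.95, interval 1.19 to 8.73). Its log2 ratio was 1.47 and became -0.0805 without the richest cell of each class, and all its UMIs lay in sub-cluster 6.

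Over all sub-clusters together, the type I and type III chains in Coch+ cells stood below and the type IV chains above their levels in Coch- cells, all short of 2-fold. Col3a1 stood at 1807 CPM in Coch+ against 2622 CPM in Coch- cells, a ratio of 0.689 (0.663 to 0.716), with Col1a2 at 0.725 (0.693 to 0.759) and Col1a1 at 0.769 (0.729 to 0.811). Col4a2 stood at 101 against 78.2 CPM (1.29, interval 1.06 to 1.58) and Col4a1 at 167 against 138 CPM (1.21, 1.04 to 1.41). Col7a1 stood at 58.0 against 41.9 CPM (1.38, 1.06 to 1.82) and Col8a1 at 269 against 157 CPM (1.72-fold). Nearly all Col8a1 UMIs lay in the 37 cells of sub-cluster 6, and its log2 ratio of 0.78 became 0.25 (-0.76 to 1.41) without them and -1.05 with Coch+ set after thinning. When Coch+ was redefined after thinning to 2000 UMIs per cell, 6 collagen genes were at least 2-fold lower and none higher. The share of all genes past 2-fold in that split was not computed, so this count cannot be set against it. Coch+ cells made up from 35.1% of sub-cluster 6 to 82.6% of sub-cluster 4. They made up 52.8% of sub-cluster 1, with the lowest collagen share, and 40.9% of sub-cluster 5, the highest in type I and type III chains. Sub-cluster 4, led by Coch, had a collagen share of 0.818%, against 0.703% in all fibroblast-like cells. The values for Coch+ cells are thus not those of sub-cluster 4. The part of this mix of sub-clusters in them was not tested.

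In a pair of small classes of the dermis, several collagen genes stood at higher levels than in fibroblast-like cells. Among them were Col4a1, Col4a2, Col15a1 and Col18a1 in endothelial-like cells. In Schwann-like cells they included Col16a1, Col20a1, Col28a1 and Col5a3. Col4a1 had 71 UMIs in Schwann-like cells, too few to tell its level there from the 155 CPM (144 to 167) of fibroblast-like cells. The 54 endothelial-like cells carried Col4a1 at 486 CPM (436 to 541), Col4a2 at 327 CPM (285 to 372), Col15a1, which lies with Col18a1 in the basement membrane zone of vessels, at 273 CPM (235 to 315) and Col18a1 at 200 CPM (168 to 237). These 4 genes made 32.2%, 21.6%, 18.1% and 13.3% of their collagen UMIs, and 82.1% of the Col15a1 UMIs of the dermis were in these cells. Col3a1 stood at 30.5 CPM here. The cluster led by Plvap and Tm4sf1 (37 cells) held all 188 of their Col15a1 UMIs and all 41 of Col13a1, a transmembrane collagen named after its values were seen. In the cluster led by Ccl21a and Lyve1 (17 cells), Col4a1 (190 CPM), Col18a1 (154 CPM) and Col23a1 (117 CPM) led.

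The 57 Schwann-like cells carried Col16a1 at 247 CPM (200 to 302), the highest level of that gene in any class. Col20a1, a fibril-associated collagen, stood at 176 CPM (136 to 224), and these cells held 67 UMIs, 89.3% of those in the dermis. Of Col28a1, a collagen known from peripheral nerve, they held 28 UMIs, 93.3%, at 73.6 CPM. Col5a3 stood at 124 CPM (90.8 to 164). Col3a1 was second to Col16a1 by UMIs, at 218 CPM, followed by Col4a1 at 187 CPM, and Col1a2 stood at 160 CPM. Fibroblast markers were detected in these cells for 12 of 14 (Pdgfra and Fbln1 at 0), with a summed level of 1695 CPM, and endothelial-like cells had 298 CPM, with 3 of 14 at 0. The part of fibroblast RNA in these collagen levels was not tested. Col15a1, Col20a1 and Col28a1 were named after their values were seen.

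In the dermal immune-like cells the fibroblast collagens were found at a low level that differed between genes. All collagen genes together stood at 1.75% (1.70 to 1.81%) of their level in fibroblast-like cells. Of 24 genes with at least 20 fibroblast-like UMIs, the percentages ran from 0.723% for Col8a1 to 7.09% for Col27a1, with a median of 2.07%. The interval of 10 genes held 1.75%, that of 10 lay above and that of 4 below. The 14 fibroblast markers had a median of 1.91%, with Gsn at 24.8% and Pi16 at 19.5% as the highest.

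**Figure D3:**
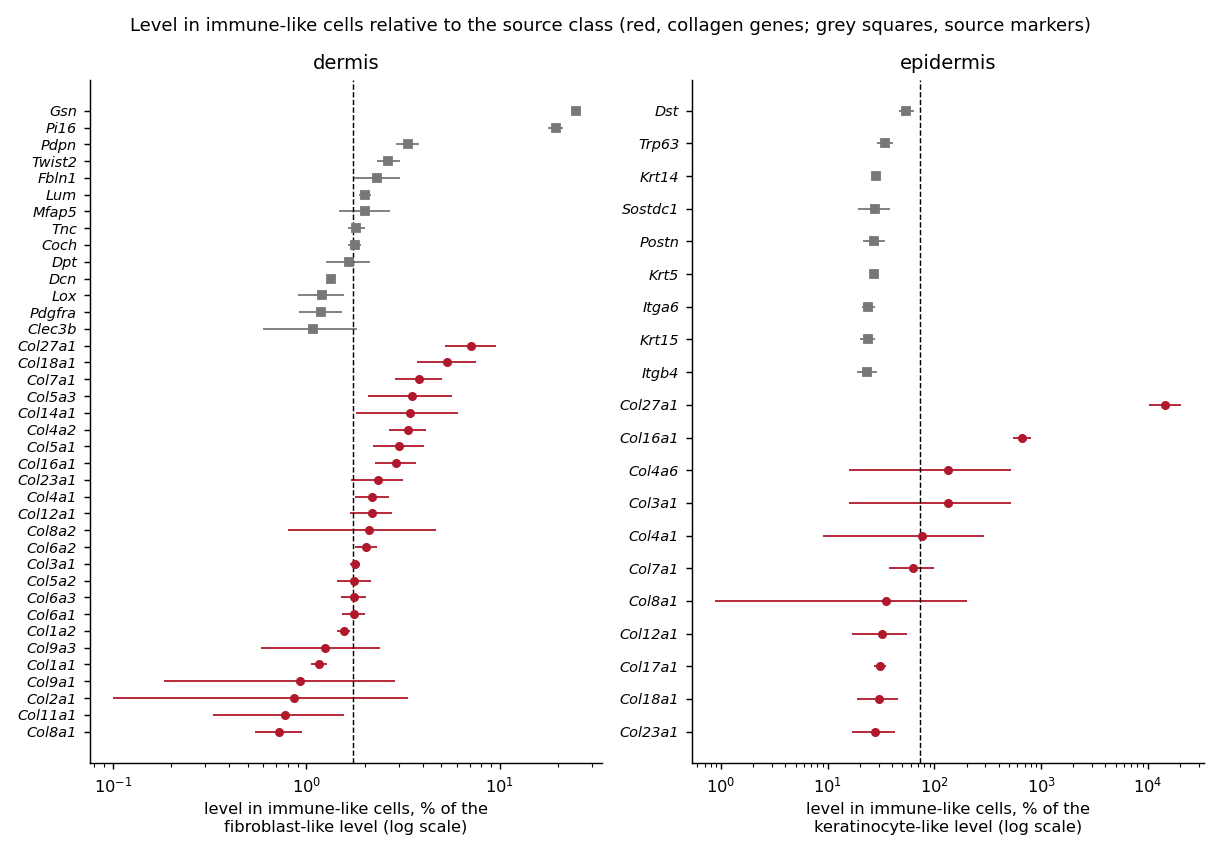
Level of each collagen gene (red) and source class marker (grey) in immune-like cells as a percentage of its level in the source class (fibroblast-like cells of the dermis, keratinocyte-like cells of the epidermis), on a log axis with exact 95% counting intervals. The dashed line is the pooled collagen level, 1.75% in the dermis and 73.8% in the epidermis, and genes with 0 immune UMIs are left out. In the epidermis Col27a1 and Col16a1 stand far to the right of the line, and the median over 14 epidermal genes, those at 0 included, is 33.7%.

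The low level was found in each of the immune-like clusters of the dermis. Over 18 immune-like clusters, Col3a1 had a median of 34.3 CPM, Col1a2 22.0 CPM and Col1a1 12.7 CPM. The lowest Col3a1 level was 15.6 CPM in the natural killer cluster and the highest 206 CPM in a dendritic cluster of 41 cells led by Ccl22 and Ccr7. There, 1 cell held 243 of 327 collagen UMIs, with 97 Col3a1 and 169 Dcn UMIs, and without it the collagen share of the cluster fell from 0.0560% to 0.0153%. The next highest cluster, of 130 mast cell or basophil-like cells with a median of 877 UMIs, stood at 70.5 CPM for Col3a1. There, 1 cell held 24 of 56 collagen UMIs and 7 of 12 Col3a1 UMIs, and without it the collagen share fell from 0.0329% to 0.0189%.

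The low level was unevenly spread between cells. In 4 equal groups of the immune-like cells by depth, the collagen share was 0.0212%, 0.0128%, 0.0105% and 0.0119% from shallow to deep, while UMIs per cell ran from 0.475 to 1.97. The 67 immune-like cells with 5 or more collagen UMIs held 848 of the 4240 immune-like collagen UMIs, and 1 cell of a macrophage cluster held 14 of the 15 Col17a1 UMIs of immune-like cells together with 277 Krt14 UMIs. Doublets were not removed for these values. The proportion of chains differed: Col3a1 had 2.89 UMIs (2.59 to 3.22) per Col1a1 UMI in immune-like and 1.88 (1.82 to 1.94) in fibroblast-like cells. How much of this level was free RNA, cell pairs or transcripts made by the immune cells was not tested.

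Among keratinocyte-like cells of the epidermis a single gene made most collagen transcripts. Their 3206 cells carried 22483 collagen UMIs, 0.0224% (0.0221 to 0.0226%) of their UMIs, and 73.2% of these were Col17a1. A collagen UMI was found in 90.1% of cells at a median of 31586 UMIs and in 19.6% (18.2 to 21.0%) after thinning to 1000 UMIs. Col17a1 stood at 164 CPM (161 to 166), found in 87.3% of cells (15.1% after thinning). The next were Col23a1 at 17.4 CPM, Col18a1 at 16.6 CPM, Col12a1 at 9.28 CPM, Col7a1 at 6.91 CPM and Col16a1 at 5.04 CPM. Type I and III chains were nearly absent, with 40 Col1a2, 34 Col3a1 and 19 Col1a1 UMIs in all.

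**Figure D4:**
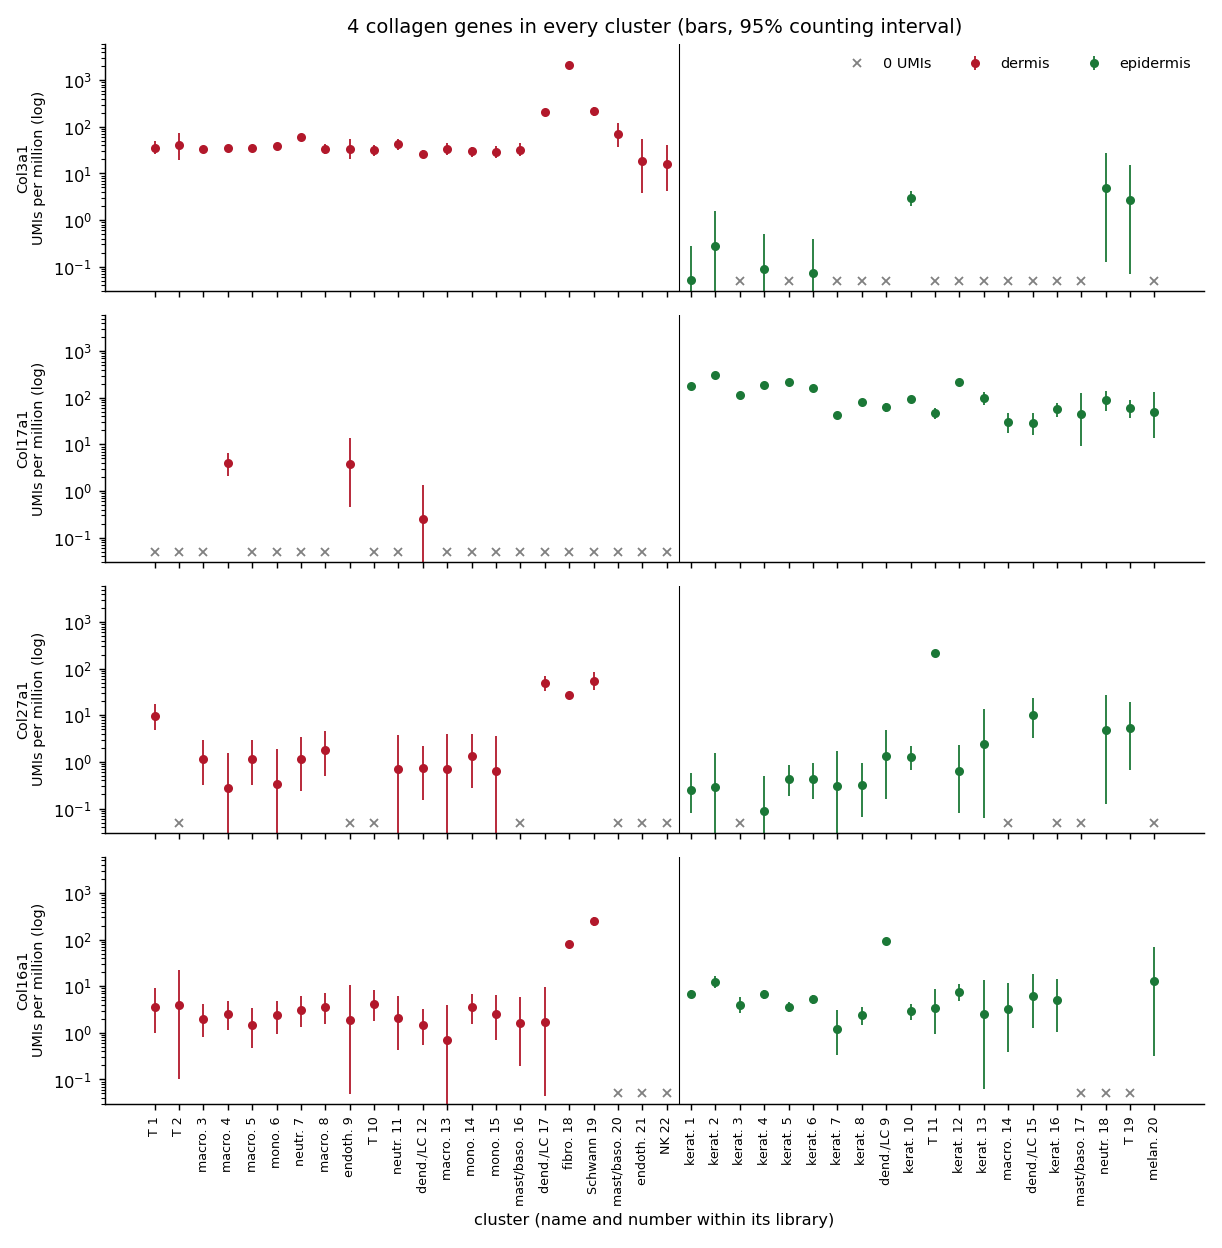
Levels of Col3a1, Col17a1, Col27a1 and Col16a1 in all 42 clusters of both libraries in CPM on a log axis, dermis in red and epidermis in green, with exact 95% counting intervals and crosses for clusters at 0 UMIs. Col3a1 peaks in the fibroblast-like cluster, Col17a1 in keratinocyte-like clusters, Col27a1 in an epidermal T cell cluster at 215 CPM and Col16a1 in the Schwann-like cells at 247 CPM.

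None of 15 collagen genes compared in the epidermis was at least 4-fold higher in keratinocyte-like than in immune-like cells, and 2 were at least 4-fold lower, where 3.82% of 13455 genes were higher and 12.8% lower. The median log2 ratio was 0.93, against -0.03 for all genes. Col17a1 stood at 164 against 50.4 CPM, 3.24-fold (2.84 to 3.72), and Col23a1 at 17.4 against 4.79 CPM, 3.62-fold (2.36 to 5.87). Col18a1 was 3.30-fold (2.17 to 5.28) and Col12a1 3.13-fold (1.82 to 5.89) higher. Col7a1 was 1.59-fold (1.01 to 2.66) higher. The median turned to -0.14 when classes were gated by marker UMIs, and 3 collagen genes instead of 0 passed 4-fold higher when the highest doublet scores were removed. The share of all genes past 4-fold with those cells removed was not computed, so the 3 cannot be set against it. The 0.5 UMIs added to each sum limited the count of genes called higher. Col1a2, with 40 keratinocyte-like and 0 immune-like UMIs, reached a log2 ratio of only 1.82, short of the call. The exact interval of its ratio, without added UMIs, began at 0.451. These counts were thus too few to tell it from no difference. Krt14, a keratinocyte marker, stood in immune-like cells at 28.2% of its keratinocyte-like level, so it too fell short of 4-fold. Of the 8 hemidesmosome genes 2 passed 4-fold, Itgb4 at 4.28-fold and Itga6 at 4.15-fold, with a list median log2 ratio of 1.53. Both, and Dst of the same list, were markers that named the keratinocyte-like clusters, so this count is not independent of the class.

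In the immune-like cells of the epidermis most keratinocyte collagens stood at percentages near those of other keratinocyte transcripts. Col17a1 stood at 30.8% (26.9 to 35.2%) of its keratinocyte-like level, Col18a1 at 30.3%, Col12a1 at 32.0%, Col23a1 at 27.6% and Col7a1 at 62.8% (37.6 to 98.8%). Basal keratinocyte markers stood at a median of 27.3%, with Krt14 at 28.2%, Krt5 at 27.1% and Krt15 at 23.7%. Over the 7 immune-like clusters, Col17a1 lay between 28.6 CPM and 88.6 CPM, and it was thus found in each. Of 14 fibroblast markers 7 were at 0 in these cells, Pdgfra, Dpt, Lox and Coch among them. The other 7 were detected, and the 14 summed to 377 CPM, against 107 CPM in keratinocyte-like cells. Col1a2 was at 0 in the immune-like cells, with 2 UMIs each of Col1a1 and Col3a1.

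Col27a1 and Col16a1, the 2 genes that were lower in keratinocyte-like cells, had their UMIs in specific immune-like clusters. Col27a1 stood at 58.7 CPM in immune-like and 0.408 CPM in keratinocyte-like cells, a 144-fold difference (103 to 205). Of its 257 immune-like UMIs, 247 lay in 1 T cell cluster (474 cells, led by Trdc, Cd3g and Tcrg-C1, genes of the γδ T cell receptor complex), at 215 CPM (189 to 243). It was found in 170 of those cells, 35.9% (31.5 to 40.4%), with up to 6 UMIs in a cell, at a median of 2275.5 UMIs per cell. The Col27a1 log2 ratio stayed past 4-fold in all alternatives, from -7.80 to -6.21.

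The T cell marker Trdc, which led that cluster, was found in nearly all of its cells and so could not separate those with and without Col27a1. It was found in 98.8% of cells with a Col27a1 UMI and in 97.4% of cells without, at medians of 2454 and 2132 UMIs. Cd3g was found in 98.2% and 98.0%, Trbc1 in 60.6% and 59.9% and Trac in 10.6% and 6.91%. Cd3e was found in 97.6% and 88.5% and Ptprc in 74.1% and 64.5%. Krt14 was found in all 170 cells with Col27a1 and in 303 of the 304 without, at 7295 and 4787 CPM, and its part in the result was not tested. In the keratinocyte-like cells, at a median of 31586 UMIs, Col27a1 was found in 1.06% of cells. After thinning to 1000 UMIs it was found in 9.16% of immune-like and 0.0324% of keratinocyte-like cells. The other epidermal T cell cluster (52 cells, led by Il17f and Il17a) stood at 5.43 CPM (0.657 to 19.6).

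In the dermis Col27a1 was mostly low in T cells. Among the 18 immune-like clusters it was highest in 1 dendritic cluster and at 0 UMIs in 5. The T cell cluster led by Tnfrsf4 and Trac stood at 9.89 CPM (11 UMIs in 7 of 153 cells), and the T cell cluster led by Il17f held 0 UMIs in 150 cells. The dendritic cluster led by Ccl22 and Ccr7 stood at 49.7 CPM (33.3 to 71.3), with 29 UMIs in 12 of 41 cells, and the cell richest in collagen held none of them. Schwann-like cells stood at 55.2 CPM and fibroblast-like sub-cluster 6 at 149 CPM.

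Col16a1 stood at 33.3 CPM in immune-like and 5.04 CPM in keratinocyte-like cells of the epidermis, 6.61-fold (5.46 to 7.96). Its log2 ratio of -2.73 became -1.62 with classes gated by marker UMIs and -1.64 by the mean of per-cell CPM, both short of 4-fold. Of its 146 immune-like UMIs, 137 lay in a cluster of 173 dendritic or Langerhans-like cells (led by Cd207, Mfge8 and H2-M2), at 91.8 CPM (77.1 to 109), in 60 cells or 34.7% (27.6 to 42.3%). Cd207, the langerin gene of Langerhans cells, was found in 98.3% of cells with Col16a1 and 85.8% of cells without, at medians of 9050.5 and 6793 UMIs. In the T cell cluster with Col27a1 it stood at 3.48 CPM, and in keratinocyte-like cells it was found in 14.0% of cells.

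Col17a1, Col23a1 and Col16a1 were at least 2-fold higher in basal than in other keratinocyte-like cells. The call here was a 2-fold difference between the 2064 basal cells and the other 1142 keratinocyte-like cells, with medians of 33178 and 28072 UMIs. No collagen gene named the basal class. Its clusters of 406 and 337 cells were called basal by Itga6, Itgb4 and Dst alone, genes of the hemidesmosome to which type XVII belongs. The Col17a1 comparison is thus not fully independent of how the class was drawn. These 2 clusters held 5538 and 3199 of the 18367 collagen UMIs of the basal cells. Against the reference over all clusters, the suprabasal markers Krt6a and Krtdap and the granular markers Ivl and Tgm3 also stood out in both. Of 14 collagen genes compared 3 were higher and 5 lower, where 2.81% of 12936 genes were higher and 5.72% lower. Col17a1 stood at 196 against 88.9 CPM, 2.20-fold (2.11 to 2.30). Col23a1 stood at 20.6 against 9.80 CPM, 2.10-fold (1.86 to 2.39), and Col16a1 at 5.99 against 2.84 CPM, 2.11-fold (1.67 to 2.69).

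Below 2-fold lay Col7a1 at 1.65-fold, Col18a1 at 1.62-fold (1.44 to 1.83) and Col12a1 at 1.32-fold (1.13 to 1.54). The Col18a1 direction turned, to a log2 ratio of -1.10 with the highest doublet scores removed and -1.02 at Leiden resolution 0.5. Col4a5 and Col4a6, the head-to-head chains of the epithelial basement membrane, had 36 and 34 UMIs in all keratinocyte-like cells. These were too few to tell their ratios of basal to other cells, 1.51 and 1.40, from no difference. Col27a1 in basal cells was at 0.551 of its level in the other cells, with 41 UMIs in all, also too few to tell from no difference. Of the 8 hemidesmosome genes, 5 were at least 2-fold higher in basal cells, where 2.81% of all genes were, with a median log2 ratio of 1.06 against 0.08 for all genes. Itga6, Itgb4 and Dst, 3 of these 8, were markers that named the basal class, so this count is not independent of it.

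**Figure D5:**
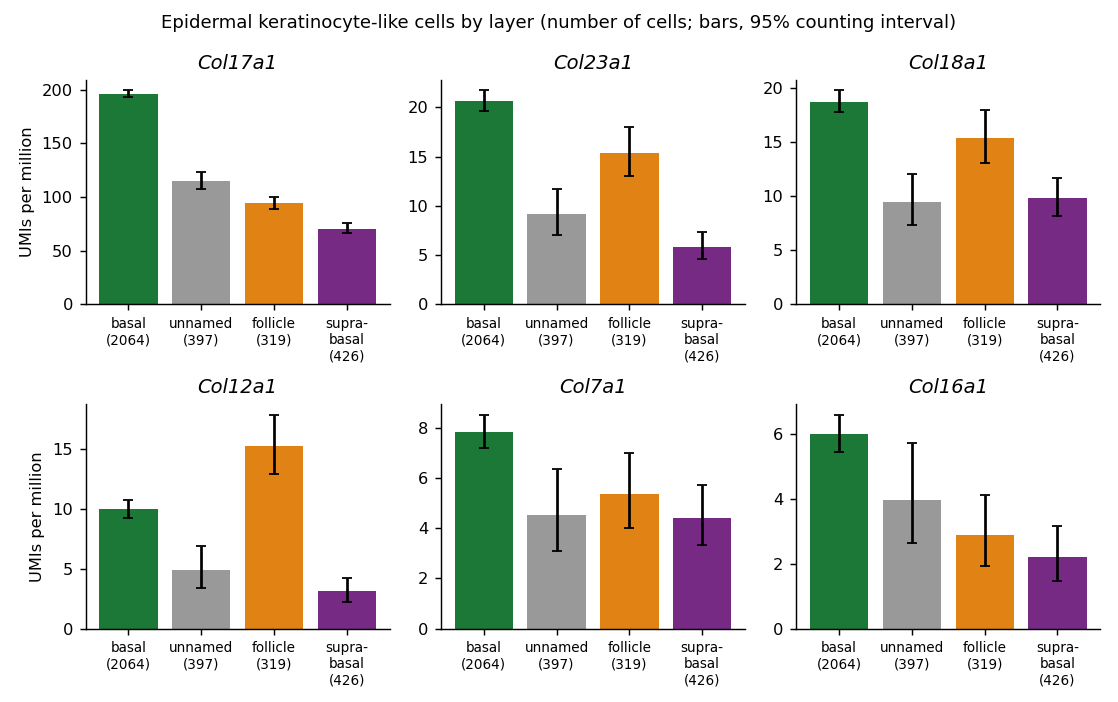
Levels of 6 collagen genes in CPM (bars from 0, exact 95% counting intervals) in basal, suprabasal and follicle keratinocyte-like cells and those whose layer was not named. Col17a1 is highest in basal cells (196 CPM) and lowest in suprabasal cells (70.6 CPM), and Col12a1 is highest in follicle cells (15.3 CPM).

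By layer, Col17a1 ran from 196 CPM (193 to 199) in basal to 115 CPM (108 to 123) in cells of unnamed layer, 94.2 CPM (88.3 to 100.4) in follicle and 70.6 CPM (66.1 to 75.3) in suprabasal cells, with no overlap of neighbouring intervals. Col23a1 ran from 20.6 to 15.4, 9.17 and 5.86 CPM in basal, follicle, unnamed and suprabasal cells. Col12a1 went another way, with 15.3 CPM (13.0 to 17.9) in follicle and 10.0 CPM (9.28 to 10.8) in basal cells. Col18a1 had 18.7 CPM in basal and 15.4 CPM in follicle cells, with overlapping intervals.

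The 5 lower genes were Col3a1, Col1a2, Col6a3, Col4a1 and Col8a1, all with few UMIs, and only 2 genes were lower when at least 50 UMIs were asked for. The share of all genes lower at that minimum was not computed. UMIs of the 5 genes lay mostly in the follicle cluster of 319 cells: 37 of the 40 Col1a2 UMIs and 30 of the 34 Col3a1 UMIs. In that cluster a single cell with 117 collagen UMIs held 19 of the Col1a2 and 17 of the Col3a1 UMIs, with 169 Dcn, 4 Pdgfra and 106 Krt14 UMIs. Of the Col6a3 UMIs, 20 of 25 lay in 1 follicle cell. Col4a1 (39 UMIs in 30 follicle cells, at most 2 in a cell) and Col8a1 (40 UMIs in 25 cells, at most 6 in a cell) were spread over more cells of the cluster.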

How the data were processed

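The authors sequenced Chromium 3′ libraries of the IMQ-treated dermis and epidermis, and deposited for each the filtered matrix of UMI counts per gene and cell, made with Cell Ranger 3.0.2 (per the file headers) on mm10 (per the labels). The annotation version was not given in the sources used here. These raw counts were used as deposited.

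Barcodes with under 200 genes or over 10% mitochondrial UMIs were removed, leaving 4747 and 4173 cells. Each library was clustered apart from the other with scanpy 1.11.5 (2000 variable genes without collagen genes, 30 principal components, 15 neighbours, Leiden resolution 1). A marker counted for a cluster when 25% or more of the cells held it and its level was 2-fold or more a reference level. The reference was the median CPM over all clusters of both libraries, or the lower quartile of its own library if higher, with 2 CPM added to each. Keratinocyte layers were called against the other keratinocyte-like clusters, but the basal layer against the suprabasal clusters alone. A name needed at least 3 markers. These thresholds were set after the clusters had been seen. Where classes were gated by marker UMIs instead, keratinocyte-like cells had 1% or more of their UMIs in Krt14, Krt5, Krt10 and Krt1 and no Ptprc UMI. Of the rest, fibroblast-like cells had a Pdgfra but no Ptprc UMI, and immune-like cells a Ptprc but no Pdgfra UMI. Doublets were not removed in the values of the report.

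UMIs were summed by class. With 1 library per tissue no test was possible, so a gene with at least 20 UMIs over both classes was called by its fold alone: 4-fold between classes, and 2-fold between basal and other keratinocyte-like cells and between Coch+ and Coch- cells, with 0.5 UMIs added to each sum. Shares carry Clopper-Pearson, CPM Poisson and ratios exact conditional intervals. These 95% intervals, and the floor of 3 counts for a gene at 0, cover counting error only. Thinning drew 1000 UMIs from each cell.

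Collagen genes with at least 50 UMIs in fibroblast-like or keratinocyte-like cells were named, with the 3 genes of most UMIs in each other list, and Tnc, Coch, Pdgfra and Ptprc. Other named genes were chosen after their values were seen. The collagen genes and all lists were chosen with earlier results of these data known. Sums and intervals used scipy 1.17.1 and pandas 2.3.3 (numpy 2.4.6) under Python 3.11.15. Scripts that compute ratios were tested on simulated data, with changes put only into genes of many UMIs and between groups of equal cell number. Changes in genes with few UMIs, or between classes of very unequal total UMIs, were not covered. Gene positions came from GENCODE M21 and upstream sequences from RefSeq, both on GRCm38, the assembly of mm10.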

Additional observations from a re-analysis of the deposited data

How the results depend on the processing

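No paired analysis was possible because there was a single library of each tissue, so nothing here measures the spread between mice. Scrublet's own threshold marked 0 dermal and 8 epidermal cells and had thus not worked, so the highest scores were removed instead (0.8% per 1000 cells, 180 dermal and 139 epidermal cells), which left 379 of 420 fibroblast-like cells. The sign of the log2 ratio was followed for a selection of the collagen genes, each gene counted once for every alternative. It held in 126 of 126 such values for fibroblast-like against immune-like cells and 83 of 84 for keratinocyte-like against immune-like. It held in 97 of 99 for basal against other and 87 of 91 for Coch+ against Coch- cells. Alternatives that changed only the minimum of UMIs left each ratio as it was, so their part of these counts was fixed in advance. Apart from the effect of the added UMIs stated below, the cause of the changes given next was not tested. The settings that left out sub-clusters, cells with 5 or more collagen UMIs, shared barcodes or clusters of unnamed layer were chosen after seeing the data.

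The collagen share of fibroblast-like cells, 0.703%, was 0.675% under a stricter cell filter (200 to 5000 genes, mitochondrial UMIs up to 5%), 0.773% with the highest Scrublet scores removed, 0.839% with classes gated by marker UMIs (168 cells), 0.864% without sub-clusters 1 and 3, and 0.673% without sub-cluster 6. That of keratinocyte-like cells, 0.0224%, was 0.0214% with the stricter filter. The fibroblast-like share of the dermal collagen UMIs, 85.1%, was 85.6% with that filter, 85.9% with high Scrublet scores removed, 85.7% with collagen genes allowed in the clustering, 42.1% gated, 80.1% without sub-clusters 1 and 3, and 82.7% without 6. The immune-like level of the dermis, 1.75%, was 1.63%, 1.44% and 1.65% in the first 3 of these, and 1.45% without immune-like cells holding 5 or more collagen UMIs, which took that of the epidermis from 73.8% to 63.3%. Thinned to 2000 UMIs, 20.9% of dermal and 27.0% of epidermal immune-like cells held a collagen UMI.

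With no minimum but 1 UMI, 1 collagen gene was lower in fibroblast-like than in immune-like cells. In keratinocyte-like against immune-like cells, where 0 were higher and 2 lower, 3 were higher with high Scrublet scores removed, 1 with collagen genes in the clustering, 2 by the mean of per-cell CPM, 2 without the richest cell of each class and 3 without immune-like cells of 5 or more collagen UMIs, while 1 was lower gated, 16 with no minimum and 1 by the per-cell mean. Their median log2 ratio of 0.93 turned to -0.14 gated, -1.35 with no minimum and -0.27 with a pseudocount of 2 UMIs. The 0.5 UMIs added to each sum weigh more in the immune-like sum, which was smaller, and so drew genes with few UMIs downward. With no minimum, Col9a1, with 1 keratinocyte-like and 0 immune-like UMIs, thus counted as lower at a log2 ratio of -2.94. In basal against other keratinocyte-like cells the 5 lower genes became 2 with the stricter filter, 2 at a minimum of 50 UMIs and 24 with none, and the median of 0.41 turned to -0.33 with high Scrublet scores removed, -0.47 at Leiden resolution 0.5 and -2.16 with no minimum. In Coch+ against Coch- cells, where 1 was higher and 0 lower, 0 were higher at a minimum of 50 UMIs, without the richest cells and with Coch+ set after thinning to 2000 UMIs, and 2 with no minimum, by the per-cell mean and without sub-clusters 1 and 3. With no minimum 5 were lower, without the richest cells 2 and with Coch+ set after thinning 6. Shares over all genes were not computed for any of the alternatives, so these counts have none beside them. The Col2a1 log2 ratio of 1.47 turned to -0.0805 without the richest cells, -4.86 with Coch+ set after thinning and -0.77 without sub-cluster 6.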
